A study of Mus musculus with 72 samples.

Results

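The difference between heart and brain in the response to loss of Gnb5 was measured over all 60 Gnb5-/- and Gnb5+/+ libraries of the series, which holds 72. Each of 12 male mice aged 18 weeks, 6 Gnb5-/- and 6 Gnb5+/+, gave 5 RNA-seq libraries: right and left atria, ventricles, whole cerebellum, hippocampi and whole cerebral cortex. This made 24 heart and 36 brain libraries in 10 groups of 6. The Gnb5-/- mice carried a germline deletion of exon 3 made on the inbred C57BL/6J background, so both organs of an animal had the same genotype, and the 12 libraries of heterozygous hearts were not used. For each gene, the interaction was the mean log2 effect of the knockout in atria and ventricles minus its mean log2 effect in cerebellum, hippocampus and cerebral cortex, with the mouse as a block. A positive interaction means that the level in Gnb5-/- relative to Gnb5+/+ mice was higher in heart than in brain, and a negative one that it was lower.

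Gnb5 encodes the β5 subunit of G proteins. Unlike the other β subunits, β5 forms stable complexes with the R7 family of regulators of G protein signalling (Rgs6, Rgs7, Rgs9 and Rgs11), which speed up GTP hydrolysis by Gi and Go α subunits and so shorten signals from their receptors. In the heart this acts on the muscarinic M2 receptor and the GIRK potassium channels that slow the beat. In neurons it limits inhibitory receptor signals, and in the retina it sets the time course of the light response.

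The files held between 29204390 and 48807435 reads on genes per library. Levels are CPM, counts scaled to the size of the library, with 1 scaling for both organs, given as the lowest, median and highest of 6 libraries, and the organ effects are differences of log2 CPM over mice. In these bulk samples, fewer cells of a type and less RNA per cell cannot be told apart. Cardiac muscle markers were abundant in every heart library, and 4 neuronal markers summed to between 2609 and 4088 CPM in the brain and to at most 18.1 CPM in the heart. The hippocampal and cerebellar libraries of Gnb5+/+ mouse 8 also held cardiac transcripts: Myh6, the α-myosin heavy chain, was at 112 and 32.9 CPM there and at most at 0.577 and 0.426 CPM in the other 11 libraries of each region. The cortical library of Gnb5-/- mouse 14 and the cerebellar library of Gnb5-/- mouse 12 stood apart, with median correlations of 0.924 and 0.947 with their groups. The cortical library of Gnb5-/- mouse 3 followed at 0.976. Reads outside genes were 6.9%, 8.0% and 8.3% in these libraries in turn, and at least 11.9% in every Gnb5+/+ brain library. No fit left out all of these libraries together, and the part of this difference in the brain effects was not tested.

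The interaction passed an adjusted p of 0.05 at 83 of 20358 genes, 0.408% (edgeR's quasi-likelihood test, Benjamini-Hochberg adjustment), with 38 positive values (0.187%) and 45 negative ones (0.221%). Their absolute interactions ran from 0.28 to 4.64 with a median of 0.69, and the median interaction of all genes tested was 0.0080. The knockout effect was the larger one in heart at 65 of the 83 genes and in brain at 18, and its sign differed between the organs at 60. The 83 were called on the difference between the organs, and such a choice favours opposite signs. The heart effect was a mean over fewer tissues, and its SE was often, though not always, the larger one. Shares over all genes tested are not given here, so whether the heart responded more in general was not tested. Both organs had a mean level of at least 1 CPM at 69 of the 83 genes. Without the 2 cardiac-containing libraries of mouse 8, an alternative chosen after the data were seen, 69 genes passed, 63 of them among the 83. The counts were 91 without the cortical library of mouse 14 and 90 without the cerebellar library of mouse 12. DESeq2 called 170 genes (0.835%), 81 of them among the 83, and a limma fit of 1 value per mouse called 45, of which 23 were among the 83.

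**Figure D1:**
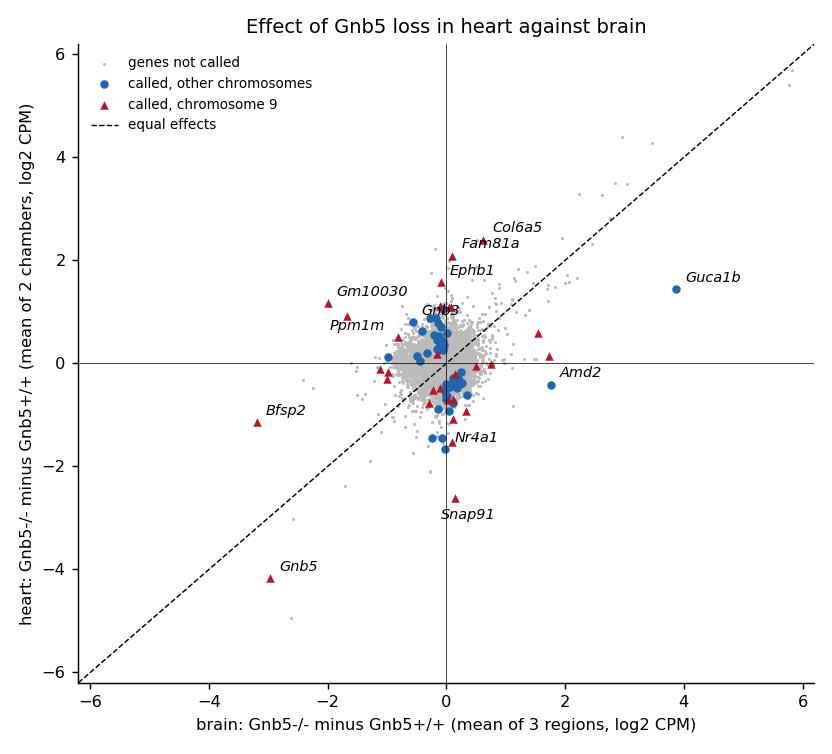
Mean knockout effect of each gene in brain (horizontal axis, 3 regions, log2 CPM) and in heart (vertical axis, 2 chambers, log2 CPM), with the 83 called genes marked. Called genes lie on both sides of the line of equal effects: Snap91 is near 0 in brain and at -2.61 in heart, and Guca1b is at 3.87 in brain and 1.44 in heart.

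The targeted gene, Gnb5 (ENSMUSG00000032192, chromosome 9, 75306288 to 75345876 in GRCm38), was lower in all Gnb5-/- libraries, without overlap in any of the 5 tissues. Its levels were 31.5, 36.5 and 39.6 CPM in Gnb5+/+ and 1.77, 2.14 and 3.13 CPM in Gnb5-/- atria. In ventricles they were 28.8, 31.5 and 36.3 CPM against 0.917, 1.605 and 2.45 CPM. In cerebral cortex they were 97.97, 109 and 120.2 CPM against 10.9, 12 and 15.8 CPM. The reads that remained were a smaller share of the Gnb5+/+ level in heart than in brain: the log2 effect was -4.16 ± 0.14 (SE, 6 against 6 mice) in heart and -2.97 ± 0.045 in brain. The interaction was -1.18 (SE 0.093, adjusted p = 1.18e-12), and each of the 6 pairs of a heart and a brain tissue passed on its own. The heart-minus-brain difference of single mice was -2.76 ± 0.28 (SD, n = 6) in Gnb5-/- and -1.57 ± 0.1008 (SD, n = 6) in Gnb5+/+ mice, without overlap (two-sided exact permutation test, p = 0.00216, the smallest that 6 against 6 allow). Such non-overlap was found at 252 genes, 1.24% of those tested, and was itself used to choose many of the genes named here. The share of all genes without overlap within a single tissue is not given here, for Gnb5 or the genes below. The counts cover the whole gene and not the deleted exon alone.

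Of the other β subunits Gnb3 was called, and Gnb1, Gnb2 and Gnb4 were not. Gnb3, known from cone photoreceptors, had levels of 5.79, 9.74 and 17.3 CPM in Gnb5+/+ and 17.4, 19.5 and 24.5 CPM in Gnb5-/- ventricles. In cerebral cortex they were 0.146, 0.263 and 0.279 CPM against 0.0408, 0.0999 and 0.1196 CPM. The groups did not overlap in either tissue, with the order turned between them and with very low counts in cortex. They overlapped in atria, cerebellum and hippocampus. The interaction of Gnb3 was 1.55 (SE 0.24, adjusted p = 6.59e-05), and 2 of the 6 tissue pairs passed on their own, both of them with cerebral cortex. The single-mouse differences ran from 4.51 to 5.73 in Gnb5-/- and from 2.98 to 5.14 in Gnb5+/+ mice (exact permutation test, p = 0.0108), with Gnb5+/+ mouse 15 at 5.14 inside the knockout range. The interaction was 1.83 without that mouse, and Gnb3 missed the threshold with 1 value per mouse (adjusted p = 0.119). Gnb1, Gnb2 and Gnb4 had interactions of -0.0066, 0.014 and -0.0075 (SE 0.045, 0.11 and 0.07), and the sign of Gnb1 and Gnb4 turned with RLE scaling.

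None of the 8 R7-RGS proteins and anchors passed with edgeR as designed, while 4 had an unadjusted p below 0.05, as did 13.3% of all genes tested, and DESeq2 called 1, Rgs7. Rgs7, an R7 member of many neurons, had levels of 1.41, 2.26 and 2.99 CPM in Gnb5+/+ and 1.78, 3.77 and 5.73 CPM in Gnb5-/- ventricles. In hippocampus they were 54.1, 58.4 and 63.1 CPM against 55.7, 60.1 and 63.7 CPM, and the groups overlapped in all 5 tissues. Its interaction was 0.45 (SE 0.11, adjusted p = 0.0585), with single-mouse differences from -2.92 to -2.39 in Gnb5-/- and from -3.46 to -2.75 in Gnb5+/+ mice (exact permutation test, p = 0.00649). DESeq2 gave 0.45 with an adjusted p of 0.00804. Rgs7 also passed in 6 of the other alternatives, all edgeR fits: with RLE scaling, with either stricter filter on low counts, without Gnb5-/- mouse 14, without Gnb5+/+ mouse 17, and without atria, where the interaction was 0.79 (adjusted p = 0.00774). Without ventricles it was 0.1007 (adjusted p = 0.677). Rgs6, the R7 member that acts on cardiac GIRK channels, had an interaction of 0.35 (SE 0.12, adjusted p = 0.238), and Rgs11 one of 0.48 (SE 0.21, adjusted p = 0.346). The values were 0.15 for Rgs9, 0.17 for its anchor Rgs9bp, -0.27 for the anchor Rgs7bp, -0.16 for the orphan receptor Gpr158 and 0.013 for Gpr179. Rgs9, Rgs9bp, Gpr158 and Gpr179 turned their sign without atria.

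**Figure D2:**
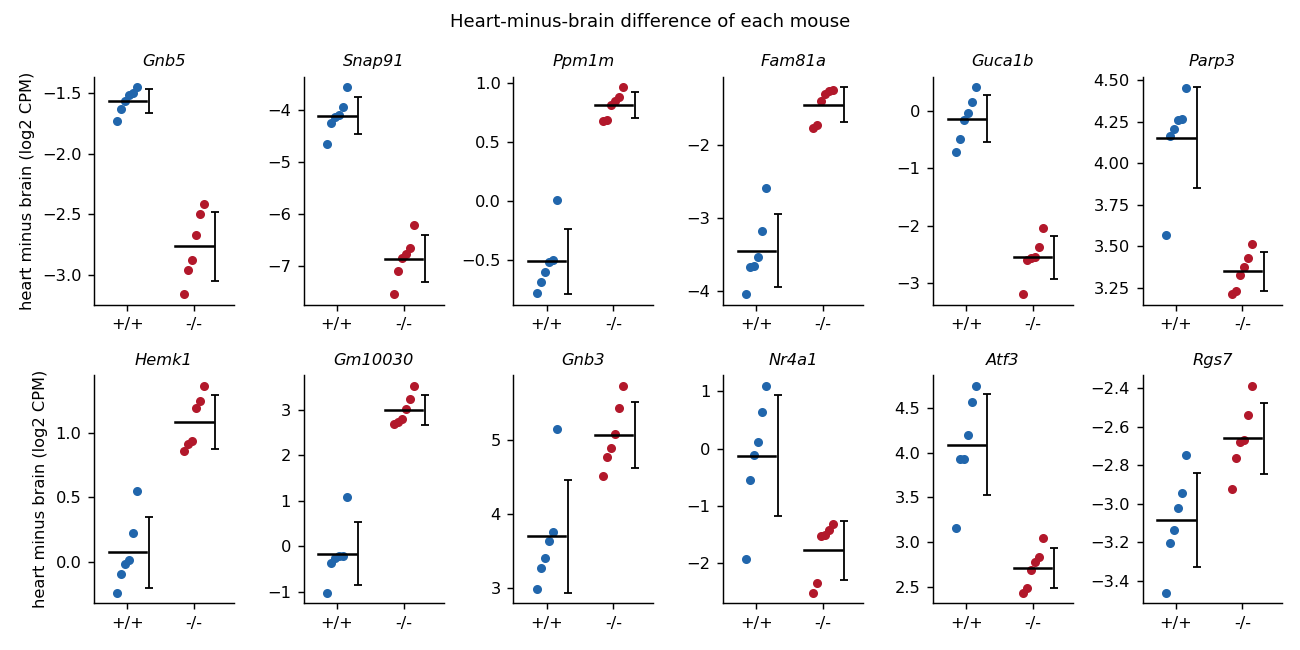
Heart-minus-brain difference of log2 CPM (vertical axis) in each of 12 mice for 12 genes, with points sorted by value within a genotype, a bar at the mean and an error bar of 1 SD. The genotypes do not overlap at Gnb5, Snap91, Ppm1m, Fam81a, Guca1b, Parp3, Hemk1, Gm10030 and Atf3, and they overlap at Gnb3, Nr4a1 and Rgs7. Non-overlap, found at 1.24% of all genes tested, was part of the rule that named the first set apart from Gnb5.

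Chromosome 9, which carries Gnb5, held 29 of the 83 called genes (34.9%) and 5.88% of the genes tested. Of its 1198 tested genes 2.42% were called, against 0.282% of the 19160 on other chromosomes. Besides Gnb5, 4 called genes lay before it among 653 tested and 24 beyond it among 543. Within 5 Mb of Gnb5, itself included, 5 of 94 genes were called, from 5 to 20 Mb 6 of 250, from 20 to 40 Mb 17 of 517, and farther away 1 of 337. Both signs were mixed along the chromosome, with 14 positive and 15 negative values.

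Gnb5+/+ mouse 15 lay nearer to the knockouts than the other Gnb5+/+ mice at 13 of the 15 called genes beyond base 100000000 of chromosome 9, a median 0.659 of the way to the knockout mean. At the 13 before that base, Gnb5 not counted, it was the nearest at 9, and at the 54 called genes of other chromosomes at 17, with medians of 0.340 and 0.0860. Without this mouse 87 genes were called, 33 of them on chromosome 9. The deletion and the copy of chromosome 9 that carries it went together in all Gnb5-/- mice, so their effects cannot be told apart here.

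**Figure D3:**
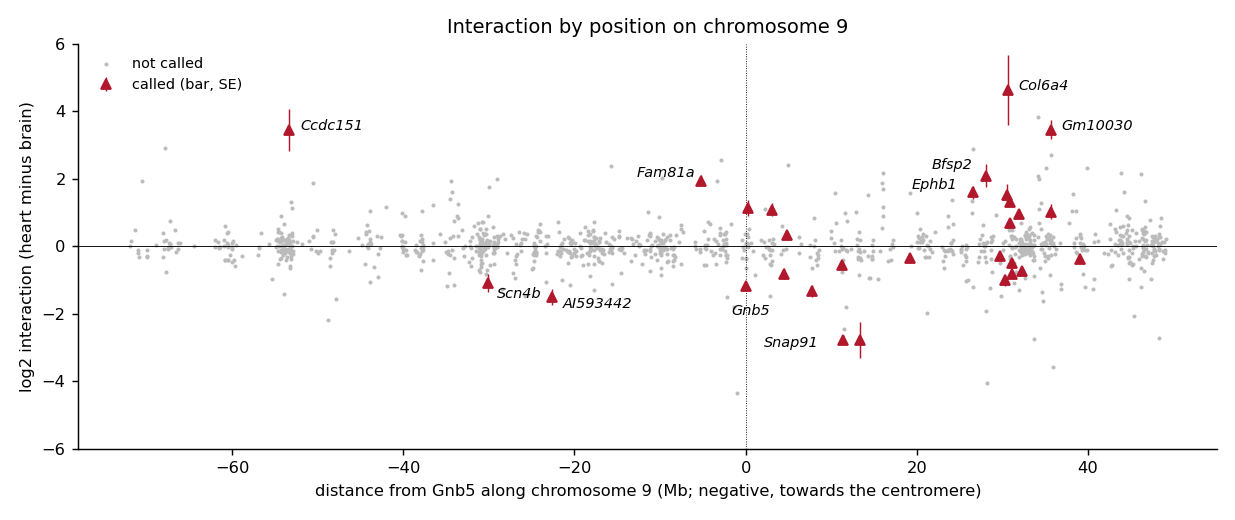
Log2 interaction (vertical axis) of the tested genes of chromosome 9 by signed distance from Gnb5 in Mb (horizontal axis), with SE bars on the called genes. The called genes have either sign, and 24 of them lie to the right of Gnb5 against 4 to its left.

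Snap91 (chromosome 9, 86765923 to 86880654, 11.4 Mb from Gnb5) had the smallest p of all genes tested. It encodes AP180, a clathrin assembly protein of synaptic vesicles. Its levels were 22.8, 31.3 and 38.4 CPM in Gnb5+/+ and 4.75, 6.505 and 8.69 CPM in Gnb5-/- atria. In ventricles they were 7.05, 11.2 and 19.2 CPM against 0.934, 1.38 and 2.299 CPM. In hippocampus they were 365, 373 and 384 CPM against 365, 392 and 406 CPM. Every Gnb5-/- heart library was below every Gnb5+/+ one of its chamber, and no brain region separated the genotypes. The interaction was -2.77 (SE 0.15, adjusted p = 7.16e-19), between -3.29 and -2.27 over the 6 tissue pairs. Summed neuronal markers ran from 2.62 to 9.32 CPM in Gnb5+/+ and from 2.72 to 18.1 CPM in Gnb5-/- atria, and in ventricles from 5.66 to 9.51 and from 4.09 to 6.25 CPM. Their part in the Snap91 result was not tested.

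Fam81a, an uncharacterised gene 5.16 Mb from Gnb5, had the opposite sign. Its levels were 1.25, 1.82 and 5.72 CPM in Gnb5+/+ and 10.2, 14.7 and 15.9 CPM in Gnb5-/- atria. In hippocampus they were 84.8, 103 and 107 CPM against 83.95, 102 and 109.8 CPM. Both heart chambers separated the genotypes and no brain region did, with an interaction of 1.95 (SE 0.15, adjusted p = 7.39e-13). Scg3, a secretory granule protein 0.297 Mb from Gnb5, also had its effect in heart, with medians of 0.694 and 1.61 CPM in Gnb5+/+ and Gnb5-/- atria and an interaction of 1.14 (SE 0.24, adjusted p = 0.0134). It was named after its values were seen, and 11 of 29 alternatives lost the call.

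Hmgn3, a nucleosome-binding protein, and Parp3, an ADP-ribosyltransferase of DNA repair, were lower in the knockout heart without overlap in either chamber. Hmgn3 had levels of 4.24, 5.403 and 5.79 CPM in Gnb5+/+ and 2.101, 2.38 and 2.92 CPM in Gnb5-/- ventricles, and in hippocampus of 23.1, 25.9 and 26.8 CPM against 24.9, 27.4 and 31.1 CPM. Its interaction was -1.33 (SE 0.18, adjusted p = 4.73e-06). The libraries of mice 14 and 12 that stood apart held its highest brain levels, 76.7 and 49.7 CPM, and the interaction was -1.22 without the first and -1.22 without the second. Parp3 had medians of 102 and 61.1 CPM in Gnb5+/+ and Gnb5-/- ventricles and of 3.22 and 4.22 CPM in hippocampus, with an interaction of -0.83 (SE 0.12, adjusted p = 1.83e-05). Hemk1, a methyltransferase of release factors, was higher in the knockout heart, again without overlap, with ventricular medians of 23.01 and 57.1 CPM and hippocampal medians of 16.5 and 14.6 CPM. Its interaction was 0.97 (SE 0.14, adjusted p = 2.39e-05), and it missed the threshold without ventricles (adjusted p = 0.0691).

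Ephb1, an ephrin receptor, differed within the heart as well. Its levels were 4.75, 7.48 and 30.9 CPM in Gnb5+/+ and 42.4, 57.4 and 70.3 CPM in Gnb5-/- ventricles, without overlap. In atria they were 1.97, 3.48 and 3.896 CPM against 3.03, 4.46 and 5.56 CPM, with overlap. The interaction was 1.605 (SE 0.1964, adjusted p = 5.75e-07), and 0.56 without ventricles (adjusted p = 0.148). Of all genes tested, Ephb1 was the only one called for a knockout effect that differed between the chambers. The effect in atria minus that in ventricles was -2.09 on the log2 scale (adjusted p = 6.71e-04, edgeR). Fam81a missed the threshold at 1.22 (adjusted p = 0.0708, edgeR).

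At Ppm1m, a phosphatase of the PP2C family (chromosome 9, 106194947 to 106199746), the organs went in opposite directions. Its levels were 6.87, 9.69 and 12.1 CPM in Gnb5+/+ and 13.7, 14.7 and 15.96 CPM in Gnb5-/- ventricles. In cerebral cortex they were 18.7, 22.9 and 25.4 CPM against 8.65, 9.597 and 12.8 CPM. Neither pair of groups overlapped. The genotypes also separated in cerebellum and hippocampus, but they overlapped in atria. The log2 effect was 0.51 ± 0.093 (SE) in heart and -0.81 ± 0.056 in brain. The interaction was 1.32 (SE 0.092, adjusted p = 2.11e-14). Gm10030, an uncharacterised transcript 35.6 Mb from Gnb5, had the same order at low counts, with medians of 0.714 and 1.89 CPM in ventricles and 0.7395 and 0.138 CPM in hippocampus. Its groups overlapped in both heart chambers and separated in each brain region. Its interaction was 3.46 (SE 0.29, adjusted p = 4.00e-12). It overlaps Rtp3 on the opposite strand, whose interaction was 1.03 (SE 0.22, adjusted p = 0.0143), with the call lost in 9 of 29 alternatives, and the strand setting of the counting was not given in the sources used here, so the reads of the pair may not be separable.

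Poc1a, Cgas and Bfsp2, also of chromosome 9, had their larger effect in brain. Poc1a, a centriole protein, had levels of 6.78, 10.1 and 10.8 CPM in Gnb5+/+ and 3.51, 4.54 and 5.08 CPM in Gnb5-/- cerebral cortex, and of 2.63, 3.25 and 4.38 CPM against 2.49, 2.94 and 3.34 CPM in atria. The genotypes separated in all 3 brain regions and overlapped in both heart chambers, with an interaction of 0.69 (SE 0.11, adjusted p = 6.59e-05). Cgas, the sensor of cytosolic DNA, had medians of 1.86 and 0.721 CPM in hippocampus and 1.86 and 1.83 CPM in atria (interaction 1.09, SE 0.19, adjusted p = 7.86e-04). Bfsp2, a filament protein of the lens, had medians of 2.73 and 0.1596 CPM in hippocampus and 2.27 and 0.403 CPM in atria (interaction 2.09, SE 0.34, adjusted p = 2.41e-04). Its call was lost without ventricles (interaction 1.18, adjusted p = 0.144), with no block (adjusted p = 0.118) and with the replicate number as the block (adjusted p = 0.0587). At all 3 the brain effect was the more negative one. Me1, the cytosolic malic enzyme, was higher in the knockout in each brain region without overlap, with hippocampal medians of 54.5 and 69.4 CPM and ventricular medians of 199 and 186 CPM (interaction -0.55, SE 0.13, adjusted p = 0.02602). Its call was lost in 12 of 31 alternatives.

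The neighbouring collagen VI genes Col6a6, Col6a5 and Col6a4 were all called, with different signs. Col6a5 had levels of 0.6899, 3.43 and 7.53 CPM in Gnb5+/+ and 12.7, 15.8 and 26.6 CPM in Gnb5-/- atria, without overlap, and an interaction of 1.53 (SE 0.31, adjusted p = 0.00721). Col6a6 had levels of 0.531, 0.707 and 2.88 CPM in Gnb5+/+ and 2.99, 3.35 and 4.32 CPM in Gnb5-/- hippocampus, also without overlap, and an interaction of -0.999 (SE 0.18, adjusted p = 0.00197). Col6a4 had no reads in any Gnb5+/+ ventricle, so no fold is given, and its medians in cerebral cortex were 6.45 and 1.45 CPM. With 1 value per mouse the adjusted p of Col6a5, Col6a6 and Col6a4 was 0.0505, 0.116 and 0.07102, and the calls were lost in 8 of 30, 4 of 31 and 11 of 29 alternatives. Col6a6 and Col6a4 were named after their values were seen. Ccdc151 likewise had no reads in Gnb5+/+ ventricles, and Glb1, the lysosomal β-galactosidase, had an interaction of -0.38 (SE 0.079, adjusted p = 0.00865), with the call lost in 5 of 31 alternatives.

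Guca1b (chromosome 17, 47385393 to 47392967) had the smallest p outside chromosome 9. It encodes a calcium sensor that activates guanylate cyclase in photoreceptors. Its levels were 0.981, 1.14 and 1.58 CPM in Gnb5+/+ and 14.9, 15.9 and 31.2 CPM in Gnb5-/- cerebellum. In hippocampus they were 0.555, 0.819 and 1.03 CPM against 8.94, 9.51 and 10.4 CPM. In atria they were 0.682, 0.889 and 1.44 CPM against 1.96, 2.65 and 3.57 CPM. The knockout was higher without overlap in all 5 tissues, but by 3.87 ± 0.14 (SE) on the log2 scale in brain and by 1.44 ± 0.21 in heart. The interaction was -2.497 (SE 0.21, adjusted p = 4.83e-12), between -2.95 and -2.03 over the 6 tissue pairs. The highest cortical and cerebellar levels, 36.3 and 31.2 CPM, were those of mice 14 and 12, and the interaction was -2.38 and -2.42 without these libraries in turn. Guca1b was the only call among 13 neuronal calcium sensors and guanylate cyclase activators, and Guca1a had an interaction of -1.49 (SE 0.54, adjusted p = 0.265).

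**Figure D4:**
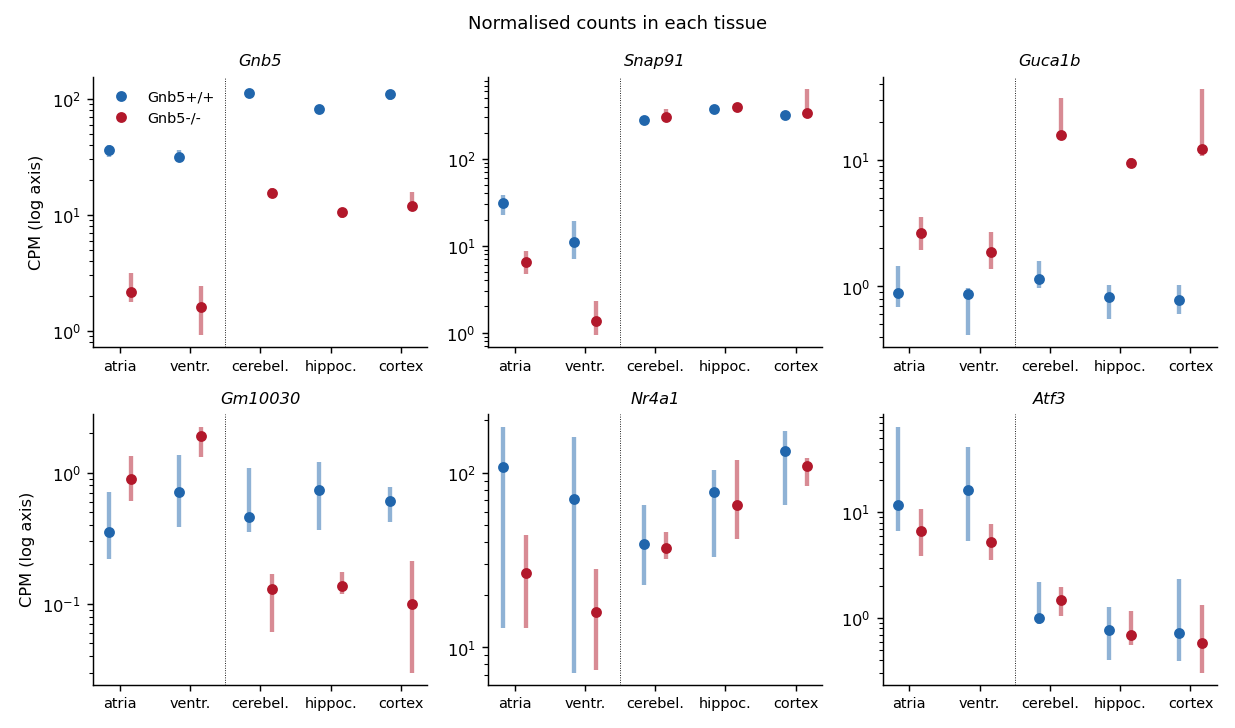
CPM (log axis) by tissue for 6 genes, with points at the median and bars from the lowest to the highest of 6 libraries. The 0 of Gm10030 in Gnb5-/- cortex is drawn at the foot of the axis, and Guca1b separates the genotypes in all 5 tissues while Snap91 does so in heart.

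Several genes with a negative interaction are known to be switched on within minutes of a stimulus. All 12 immediate early genes tested had a negative interaction, with a median of -0.43, where 48.8% of all genes tested had one and the median was 0.0080. These genes were measured in the same mice and can rise together, so they do not count as 12 independent observations. With edgeR 1 of the 12 passed, Nr4a1, with DESeq2 2, and 6 had an unadjusted p below 0.05, against 0.408%, 0.835% and 13.3% of all genes tested. Nr4a1, an orphan nuclear receptor, had levels of 12.9, 108 and 184 CPM in Gnb5+/+ and 12.9, 26.6 and 44.4 CPM in Gnb5-/- atria. In ventricles they were 7.19, 70.9 and 159.9 CPM against 7.403, 16.04 and 27.98 CPM. In hippocampus they were 33.1, 77.7 and 104 CPM against 41.9, 65.6 and 119 CPM. Gnb5+/+ hearts spread widely and their lowest values lay among the knockouts, and the brain groups overlapped. The interaction was -1.72 (SE 0.26, adjusted p = 5.73e-05), with single-mouse differences from -2.51 to -1.31 in Gnb5-/- and from -1.93 to 1.098 in Gnb5+/+ mice (exact permutation test, p = 0.0108). Fos, a subunit of the AP-1 transcription factor, had an interaction of -1.305 (SE 0.36, adjusted p = 0.107), Egr3 of -0.69 (SE 0.21, adjusted p = 0.169), and Arc of -0.0074.

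Outside that list, Atf3, a stress-induced transcription factor, had levels of 5.36, 16.2 and 41.3 CPM in Gnb5+/+ and 3.54, 5.27 and 7.68 CPM in Gnb5-/- ventricles and of 0.398, 0.773 and 1.27 CPM against 0.563, 0.696 and 1.17 CPM in hippocampus. All groups overlapped within a tissue. Atf3 was named by the rule that asks for single-mouse differences without overlap. These ran from 2.43 to 3.04 in Gnb5-/- and from 3.16 to 4.75 in Gnb5+/+ mice. Its interaction was -1.49 (SE 0.25, adjusted p = 4.49e-04). Hbegf, a ligand of the EGF receptor, had an interaction of -0.55 (SE 0.09601, adjusted p = 6.99e-04), and Trib1, a pseudokinase, one of -0.63 (SE 0.14, adjusted p = 0.02602). Nr4a2, a relative of Nr4a1, and Btg2, an antiproliferative gene, were named after their values were seen, with interactions of -1.34 (SE 0.2989, adjusted p = 0.0211) and -0.75 (SE 0.17, adjusted p = 0.0267). With limma-voom and the mouse as a random block, Nr4a1, Atf3, Nr4a2, Btg2 and Trib1 missed the threshold (adjusted p from 0.0813 to 0.361). Nr4a1, Nr4a2 and Btg2 also did so with 1 value per mouse. The call was lost in 12 of 31 alternatives at Nr4a2, 15 of 31 at Btg2 and 9 of 31 at Trib1.

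**Figure D5:**
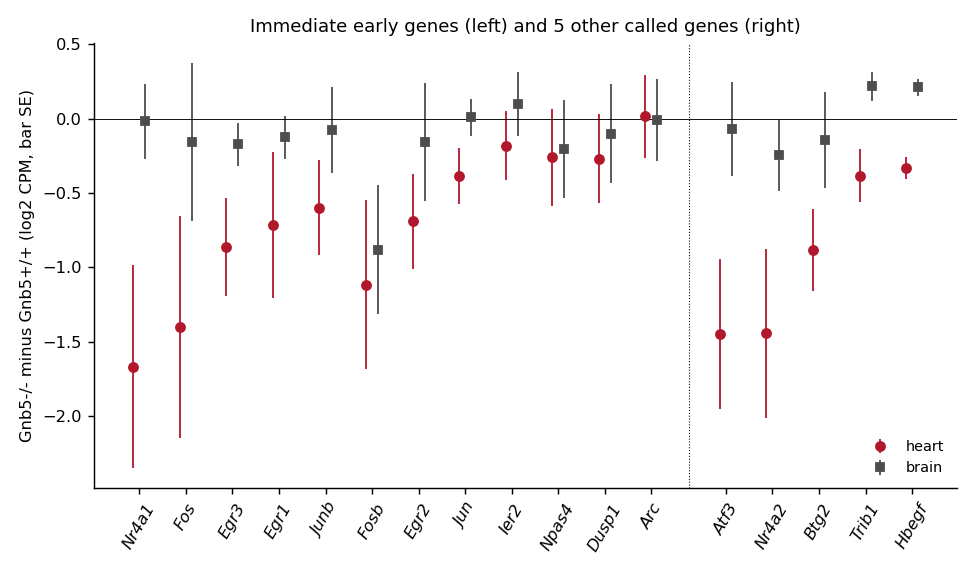
Knockout effect (vertical axis, log2 CPM) with its SE in heart (circles) and brain (squares) for 12 immediate early genes and, right of the dotted line, Atf3, Nr4a2, Btg2, Trib1 and Hbegf. The heart value lies below the brain value at every gene shown except Arc.

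The promoters of 4 of these genes are shown because their interactions shared a sign and because many early genes are known to respond to cyclic AMP through the element TGACGTCA. They are RefSeq sequences of GRCm38.p6, 250 bases before to 50 after the annotated start, 5′ to 3′ on the strand of the gene, and capitals mark the core TGACG on this strand or, as CGTCA, on the other.
Nr4a1, chr15:101266596-101266895, plus strand: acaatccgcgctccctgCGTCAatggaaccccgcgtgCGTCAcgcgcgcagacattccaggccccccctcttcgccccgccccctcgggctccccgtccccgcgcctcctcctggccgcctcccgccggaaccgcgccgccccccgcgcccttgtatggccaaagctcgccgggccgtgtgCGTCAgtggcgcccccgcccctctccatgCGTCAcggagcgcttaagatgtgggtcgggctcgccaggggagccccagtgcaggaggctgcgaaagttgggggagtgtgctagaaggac
Nr4a2, chr2:57123954-57124253, minus strand: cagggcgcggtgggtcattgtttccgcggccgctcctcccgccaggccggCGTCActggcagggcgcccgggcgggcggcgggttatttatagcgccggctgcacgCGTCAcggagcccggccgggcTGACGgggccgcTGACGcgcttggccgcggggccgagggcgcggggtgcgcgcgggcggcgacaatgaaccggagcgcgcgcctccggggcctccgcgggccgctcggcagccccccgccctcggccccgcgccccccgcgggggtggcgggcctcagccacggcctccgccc
Atf3, chr1:191183284-191183583, minus strand: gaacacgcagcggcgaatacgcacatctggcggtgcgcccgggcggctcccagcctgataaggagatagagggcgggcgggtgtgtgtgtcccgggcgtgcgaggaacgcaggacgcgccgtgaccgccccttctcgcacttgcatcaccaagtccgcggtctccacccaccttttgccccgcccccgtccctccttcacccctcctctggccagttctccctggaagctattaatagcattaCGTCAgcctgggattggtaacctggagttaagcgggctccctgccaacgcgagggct
Btg2, chr1:134079106-134079405, minus strand: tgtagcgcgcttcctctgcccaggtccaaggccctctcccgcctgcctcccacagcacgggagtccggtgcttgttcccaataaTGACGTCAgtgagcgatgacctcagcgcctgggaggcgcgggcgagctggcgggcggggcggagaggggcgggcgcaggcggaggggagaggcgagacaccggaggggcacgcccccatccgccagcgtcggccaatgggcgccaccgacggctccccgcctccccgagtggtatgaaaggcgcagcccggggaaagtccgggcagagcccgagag
The windows of Nr4a1 and Nr4a2 held 4 cores each and that of Atf3 held 1. That of Btg2 held TGACGTCA, in which a core of each strand overlaps. Of 32851 promoters of the same length, 20.8% held at least 1 core, 0.231% at least 4 and 1.79% the whole element. Of the 12 immediate early genes 8 had a promoter in the table, and 7 of these held a core in at least 1 of their promoters, as did 23% of the 27025 genes in the table. The list was chosen with earlier results known, and genes can have more than 1 promoter, so these shares are no test of enrichment. The promoters of Hbegf and Trib1, whose interactions were also negative, are not shown. A match describes these letters only. Cyclic AMP was not measured, and its part in the interactions was not tested.

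Further genes were named by rule. Positive values were found for Plagl1, an imprinted zinc finger gene (0.95, SE 0.22, adjusted p = 0.02602), Lrrc75b (0.66, SE 0.13, adjusted p = 0.00721) and Ocln, a tight junction protein (0.6012, SE 0.14, adjusted p = 0.0293). Sept6, a septin, and Sh3bp4 had interactions of 0.39 and 0.39. Negative values were found for Rhoq, a small GTPase (-0.41, SE 0.071, adjusted p = 6.99e-04), and Tmem117 (-0.52, SE 0.1048, adjusted p = 0.00636). In single tissues the genotypes separated only at Plagl1 in ventricles and at Rhoq in cerebral cortex. They overlapped in every other tissue at the genes of this paragraph. The calls of Plagl1, Sept6 and Sh3bp4 were lost in 12, 18 and 19 of 31 alternatives, those of Tmem117, Lrrc75b and Rhoq in 5, 3 and 2 of 31, and that of Ocln in 15 of 30, with 0.38 without ventricles (adjusted p = 0.246).

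Some signalling and transport genes were named after their values were seen. Nrg1, a ligand of ErbB receptors, had medians of 1.45 and 3.103 CPM in Gnb5+/+ and Gnb5-/- ventricles and of 3.801 and 3.86 CPM in hippocampus (interaction 1.04, SE 0.2047, adjusted p = 0.00533). Slc38a3, a glutamine transporter, had 162 and 85.7 CPM in ventricles and 53.02 and 57.8 CPM in hippocampus (interaction -0.74, SE 0.12, adjusted p = 9.54e-05). Scn4b, a sodium channel β subunit, had 78.2 and 46.8 CPM in ventricles and 119 and 126 CPM in cerebral cortex (interaction -1.09, SE 0.26, adjusted p = 0.04001), and 16 of 31 alternatives lost the call. Plcb1, a phospholipase C downstream of Gq, had an interaction of 0.42 (SE 0.09857, adjusted p = 0.0329), and 15 of 31 alternatives lost the call. Amd2 had one of -2.79, but it is known as a near-identical copy of Amd1, so its counts are uncertain. AI593442, Filip1, Cxcl14 and Serpina3n had interactions of -1.499, -0.81, -0.62 and -1.01, with the call lost in 14 of 31 alternatives at Serpina3n, in 4 of 31 at Nrg1 and Filip1, in 1 of 31 at Slc38a3 and Cxcl14, and in none at Amd2 and AI593442.

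The pathway lists held 200 genes tested, of which 7 were called, beside 0.408% of all genes tested. The 7 included the deleted gene Gnb5, and Gnb3 and Guca1b, which the study named on these samples. The lists were chosen with earlier results of these data known, so these shares are no test of enrichment. In 11 of the 17 lists, with 130 genes, none passed with edgeR, 25 had an unadjusted p below 0.05 (13.3% of all genes tested) and DESeq2 called 2 (0.835% of all). These were the R7-RGS proteins, the G protein α and γ subunits, other RGS proteins, GIRK channels with muscarinic receptors, adenylyl cyclases, contractile, calcium handling, conduction and natriuretic or renin-angiotensin genes, and mitochondrially encoded proteins. Their median interactions ran from -0.26 (other RGS proteins) to 0.28 (natriuretic and renin-angiotensin genes). Kcnj3 and Kcnj5, the subunits of the atrial GIRK channel, had interactions of -0.18 (SE 0.091, adjusted p = 0.386) and -0.23 (SE 0.195, adjusted p = 0.593), and Chrm2, the M2 receptor, one of 0.15 (SE 0.14, adjusted p = 0.627). Among 20 synaptic genes, many of them near 0 in heart, Snap91 was among those called. Among 15 circadian clock genes the repressor Nr1d2 was called (-0.47, SE 0.12, adjusted p = 0.0484), and 21 of 31 alternatives lost it. Of 27 genes that the study names, chosen by its authors on these samples and so no independent evidence, Gnb3 and Guca1b were called. Of 76 markers of 17 cell types and tissues none passed with edgeR, 10 had an unadjusted p below 0.05 and DESeq2 called 3, beside the same 13.3% and 0.835% of all genes. Summed adipocyte markers reached 119.6 CPM in Gnb5-/- and 22.6 CPM in Gnb5+/+ atria.

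Within an organ, 1 gene was called between atria and ventricles and 7 among the 3 brain regions, none of these 7 among the 83 (edgeR). At 82 of the 83 genes neither within-organ test passed. All 83 had the sign of their interaction in each of the 6 tissue pairs, and 9 passed in at least 4 pairs taken alone. The interaction is the mean of these 6 pairs and was used to choose the 83, so the shared sign is no separate evidence. Single pairs called between 14 genes (ventricles and hippocampus) and 30 genes (atria and cerebral cortex).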

How the data were processed

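Total RNA of 60 libraries from 12 mice was sequenced. The authors trimmed the reads with cutadapt 1.8, aligned them to GRCm38 with STAR 2.5.3a and deposited counts per Ensembl gene from HTSeq 0.9.1. Of 53715 identifiers 53620 matched GENCODE M21, which gave symbols and coordinates. Reads outside genes were 4.41% to 17% of a library and were left out. The counts were scaled by TMM, filtered with filterByExpr (minimum count 10) and fitted with edgeR 4.0.16 in R 4.3.3, with 12 mice, 5 tissues and a knockout effect per tissue (40 residual degrees of freedom). The mouse comes from the labels, and libraries of 1 mouse deviated together (median correlation of 0.172 between organs, against -0.0326 between mice). Between tissues of 1 organ of a mouse the median was 0.258 in heart and 0.315 in brain. The block takes out what all libraries of a mouse share, so tissues of 1 organ still counted as separate values. The SE and p of this fit may thus be too small, which the fit of 1 value per mouse avoids. SE is the interaction divided by the square root of F. Single-mouse differences used log2 CPM (prior count 2) and exact permutation tests over 924 divisions.

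Members and lists were chosen with earlier results of these data known. Named by rule were Gnb5, called genes without overlap of single-mouse differences (the 12 of smallest p in each direction with a mean of 1 CPM in both organs and the 4 in each direction among the others), the 5 of smallest p with opposite signs, called list members (3 a list) and all Gnb and R7-RGS genes. Some genes that this rule names are not reported here. Alternatives were DESeq2 1.42.0, limma 3.58.1, other scalings, filters and blocks, and leaving out libraries, mice or tissues.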

Additional observations from a re-analysis of the deposited data

Results flagged for a closer look

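In 94 groups of 6 mice examined, the highest or lowest heart-minus-brain difference of log2 CPM stood apart by Dixon's 95% limit in the groups given here, where chance gives about 1 in 20. Gnb5+/+ mouse 15 stood apart at Ppm1m (0.012 against a group median of -0.56), Parp3 (3.56 against 4.23) and Gnb3 (5.14 against 3.52), each time towards the knockouts. Gnb5+/+ mouse 16 was the lowest at Bfsp2 (-2.59 against -1.45) and Gnb5+/+ mouse 8 at Nr1d2 (-0.66 against 0.11). Among Gnb5-/- mice, mouse 14 was the lowest at Nrg1 (-2.04 against -0.72), mouse 3 the highest at Col6a6 (4.39 against 3.83) and mouse 1 the highest at Scg3 (-6.97 against -7.90). The knockout effect on Ephb1 in atria minus that in ventricles was -2.09 on the log2 scale (adjusted p = 6.71e-04, edgeR), a difference between the chambers of 1 organ.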

How the results depend on the processing

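The count of 83 genes was 170 with DESeq2 (81 positive, 89 negative), 52 with limma-voom and a random block (26 negative) and 45 with 1 value per mouse (19 negative). Without atria it was 55 (22 negative, 17 on chromosome 9), without ventricles 61 (31 of them among the 83), without cerebellum 43 (18 positive, 25 negative), without hippocampus 36 (16 positive, 20 negative, 18 on chromosome 9) and without cerebral cortex 40 (17 positive, 23 negative), all fits of fewer libraries. With no block at all, so that not even the level shared by all libraries of 1 mouse was taken out, 67 genes passed. With the labels' replicate number, which joins different animals, as the block 66 passed. Leaving out each mouse in turn gave 50 to 122 genes, 22 to 60 positive, 27 to 62 negative and 22 to 34 on chromosome 9. The count was 50 without Gnb5+/+ mouse 16, 52 without Gnb5-/- mouse 3, 53 without Gnb5-/- mouse 1, 55 without Gnb5+/+ mouse 7 and 122 without Gnb5-/- mouse 14. The 83 genes kept their sign in each alternative that tested them. Over the 47 named called genes and all alternatives, 1137 of 1435 values stayed past the threshold and 298 did not, with 11 genes past it in every alternative. The cause was not tested.

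Among genes not called, Gnb1 was at 0.0016 with DESeq2, 0.0019 with RLE factors, 0.0028 with at least 10 counts in every library, 0.0088 without atria and 0.0055 without cerebellum. Gnb4 was at 0.0023, 0.0014 and 0.0018 in the first 3 of these, 0.0063 without the cerebellar library of mouse 12, 0.018 without the libraries of mouse 8, 0.014 without ventricles and 0.036 without cerebral cortex, and Gnb2 at -0.010 without cerebral cortex. Without atria Gpr158, Rgs9, Rgs9bp and Gpr179 were at 0.22, -0.076, -0.84 and -0.93. Gpr179 was at -0.047 and -0.053 without the libraries of mice 14 and 12 that stood apart, -0.0089 without hippocampus and -0.0065 without cerebral cortex. Leaving out each mouse, Gnb1 ran from -0.022 to 0.020, Gnb2 from -0.053 to 0.083, Gnb4 from -0.052 to 0.032, Rgs9 from -0.12 to 0.37, Rgs9bp from -0.13 to 0.40 and Gpr179 from -0.14 to 0.22.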
